A study of Rattus norvegicus with 16 samples.

Results

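The cerebral cortex of aged rats was profiled after 6 and after 12 weeks on a diet, and the shift between both durations is described here over 8 arrays, chosen as every cortical array among the 16 arrays of the study. The rats were male Sprague-Dawley animals, 15 months old when the experiment began, and were fed chow with or without curcumin, the yellow polyphenol of turmeric. The cortical arrays fall into 4 groups of 2, namely control diet for 6 weeks, curcumin diet for 6 weeks, control diet for 12 weeks and curcumin diet for 12 weeks. Each array was hybridised with RNA from a pool of 3 rats, which limits every group to a few animals. The labels call the arrays of a group biological replicates, whereas the study's own description also speaks of duplicate hybridisations of 1 RNA sample, so the p-values measure the spread between arrays, which may be technical. Because all rats started at the same age, the 12-week animals were also 6 weeks older when killed, and no label gives the day on which tissue, RNA or arrays were handled. Time on the diet, age at death and processing day therefore cannot be told apart in any value below.

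Cortex is a mixture of projection neurons, inhibitory interneurons, astrocytes, oligodendrocytes, microglia and vessels, and an array of homogenised tissue reads them together. A lower value can thus mean fewer cells of a type or less RNA per cell, and these cannot be told apart here. Neurons of the cortex have a high demand for ATP, which is made in mitochondria by the respiratory chain, a series of protein complexes of the inner membrane that hand on electrons and pump protons for ATP synthase. Their long axons rest on microtubules built of tubulin, and their terminals release transmitter from vesicles that fuse through SNARE proteins. All values are log2 expression values of probe sets called transcript clusters, of which 27342 were measured, and each shift is the mean at 12 weeks minus the mean at 6 weeks with diet held as a block.

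The tissue label held against marker genes. Prox1 and C1ql2, which mark dentate granule cells of the hippocampus, lay at 5.71 to 6.81 and 5.93 to 6.53 in the cortical arrays and at 7.31 to 8.07 and 7.86 to 8.77 in the hippocampal arrays. Arrays of the same group correlated at 0.990 to 0.995 over all clusters. In a principal component analysis the first component held 35.4% of the variance and placed the 6-week arrays at -29.37 to -0.16 and the 12-week arrays at 6.66 to 17.61. The second control array of 6 weeks stood apart, with the lowest mean correlation with the other cortical arrays (0.984) and with higher means of the olfactory bulb markers (8.08 against 6.77 to 7.11 elsewhere), the hypothalamic markers (7.28 against 6.08 to 6.79) and the red cell markers (7.28 against 5.97 to 6.62).

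More clusters passed as higher than as lower at 12 weeks. Among the brightest clusters of genes that passed without overlap between durations, the largest rises were those of Ccdc107, Ndufa3, Rpl39, Tuba1a and H4c14. The largest falls among them were those of Degs1, Bccip and Ostf1. With limma and Benjamini-Hochberg adjustment over all clusters, 671 clusters passed an adjusted p of 0.05, which is 2.45% of those tested, and 4904 had an unadjusted p under 0.05. Of these, 460 (1.68%) were higher and 211 (0.772%) were lower at 12 weeks. The median size was 0.45 for the higher and 0.36 for the lower clusters, and 22 higher against 3 lower clusters reached a 2-fold change. By a rule on means alone, at least 1.5-fold or at most 0.66-fold with no test, 193 clusters (0.706%) were higher and 47 (0.172%) lower. Counted once per gene by its brightest cluster, 163 of 14324 genes (1.14%) were higher and 124 (0.866%) were lower. In 636 of the 671 clusters all 4 arrays of 12 weeks lay beyond all 4 of 6 weeks, a separation found in 2852 clusters (10.4%) in all, 1567 upward (5.73%) and 1285 downward (4.7%). By the brightest cluster of each gene the order turned, with 569 genes apart upward and 763 downward, and 6020 of 14324 shifts were above 0. Without the second control array of 6 weeks 218 clusters passed, and 194 of them were among the 671. Leaving out any other single array gave between 25 clusters (second control array of 12 weeks) and 666 (second curcumin array of 12 weeks), with 84 without the first control array of 12 weeks, 115 without the first control array of 6 weeks, 126 without the first curcumin array of 12 weeks, 224 without the second and 483 without the first curcumin array of 6 weeks. All 671 shifts kept their direction under each of these 8 omissions, while 24 clusters passed under every one.

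Tuba1a, which encodes the main alpha-tubulin of growing and mature neurons (chr7:131992151-131996850, GRCr8), passed under each of the omissions. At 6 weeks it stood at 10.18 and 10.06 on the control arrays and at 10.20 and 10.17 on the curcumin arrays, and at 12 weeks at 10.99 and 11.06 and at 10.82 and 10.84. The durations did not overlap, and the shift was 0.78 ± 0.07 (SE, n = 4 arrays against 4, limma adjusted p = 0.00895), a 1.71-fold rise. It passed within each diet, by 0.91 on control and 0.65 on curcumin chow (adjusted p = 0.0200 and 0.0388).

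H4c14, a gene of the core histone H4 on chr2:186520468-186520863 (GRCr8), moved by the same amount. Its 6-week values were 7.32 and 7.45 on control and 7.65 and 7.54 on curcumin chow, and its 12-week values 8.21 and 8.21, and 8.28 and 8.35. Every 12-week array was above every 6-week array, with a shift of 0.77 ± 0.05 (limma adjusted p = 0.00463). Its neighbour Hist2h3c2, a histone H3 gene at chr2:186526162-186526587, rose by 0.67 ± 0.10 (adjusted p = 0.0233).

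Rpl39, a small protein of the large ribosomal subunit encoded at chrX:121192901-121195896 (GRCr8), stood at 7.80 and 7.63 on control and 7.63 and 7.87 on curcumin chow after 6 weeks. After 12 weeks the values were 8.55 and 8.68, and 8.58 and 8.46. All 12-week values exceeded all 6-week values, and the shift was 0.84 ± 0.08 (limma adjusted p = 0.00895). All 7 clusters assigned to Rpl39 passed in the same direction, but ribosomal genes have many near-identical processed copies, so these clusters cannot be taken as separate genes.

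Ndufa3, an accessory subunit of respiratory complex I (chr1:74512928-74515558, GRCr8), gave 7.90 and 7.32 on control and 7.49 and 7.79 on curcumin chow at 6 weeks, and 8.48 and 8.66, and 8.31 and 8.47 at 12 weeks. Its spread at 6 weeks was wide, yet the durations stayed apart, and the shift was 0.86 ± 0.14 (limma adjusted p = 0.0263). The largest named rise was that of Ccdc107, a coiled-coil membrane protein, with 8.43 to 8.84 at 6 weeks, 9.38 to 9.75 at 12 weeks and a shift of 0.92 ± 0.09 (adjusted p = 0.00895). The other genes among the 12 highest were Selenow, a small selenoprotein (0.77), Sprn, a prion-like membrane protein (0.75), Psd3, an exchange factor for the small GTPase Arf6 (0.70), Kcnk4, the background potassium channel TRAAK (0.68), Ndufa11 of complex I (0.65) and Micos13, a protein of the mitochondrial cristae (0.63). Their limma adjusted p-values ran from 0.0113 for Micos13 to 0.0486 for Sprn. Sprn rose by 1.10 on control and 0.41 on curcumin chow, and Psd3 by 0.95 and 0.45. Neither passed on curcumin chow (limma adjusted p = 0.202 and 0.220) or in the test of a difference between diets (0.210 and 0.367). At 6 weeks Sprn stood at 7.46 and 7.14 on control and 7.93 and 8.09 on curcumin chow. Micos13 rose more on curcumin chow (0.75) than on control chow (0.51). Sprn, Psd3 and Selenow each passed under only 1 of the 8 omissions of an array and Ndufa3, Ndufa11 and Hist2h3c2 under 2, whereas Tuba1a, H4c14 and Rpl39 passed under all 8 and Ccdc107 and Micos13 under 7.

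Among the falls, Ostf1, an adaptor protein first described in osteoclasts (chr1:225428661-225475851, GRCr8), had the smallest SE of the 24 genes named here by size. At 6 weeks it stood at 8.28 and 8.30 on control and 8.04 and 8.03 on curcumin chow, and at 12 weeks at 7.63 and 7.72, and 7.36 and 7.43. The curcumin arrays lay below the control arrays at both times, and the fall from 6 to 12 weeks was alike in both diets, at -0.62 and -0.64. Over both diets the shift was -0.63 ± 0.04 (limma adjusted p = 0.00463), and it passed under all 8 omissions.

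Bccip, a nuclear protein of DNA repair and ribosome formation, stood at 7.54 to 7.80 at 6 weeks and 6.96 to 7.12 at 12 weeks, with a shift of -0.65 ± 0.07 (limma adjusted p = 0.0113). Degs1, the desaturase of the last step in ceramide synthesis, had the lowest shift among the brightest clusters of genes that passed, -0.67 ± 0.09 (adjusted p = 0.0190), from 9.49 to 9.98 at 6 weeks and 8.83 to 9.34 at 12 weeks. Wdr26, a subunit of a large ubiquitin ligase, stood at 8.98 to 9.18 and then 8.53 to 8.58, a shift of -0.51 ± 0.05 (adjusted p = 0.00895). The remaining falls among the 12 lowest were in Ctsl, a lysosomal protease (-0.57), Esrrg, an orphan nuclear receptor (-0.57), Phax, an export adaptor for small nuclear RNA (-0.56), Leo1 of the Paf1 transcription complex (-0.52), Hddc3, a hydrolase of a nucleotide alarmone (-0.48), Emc4, which helps insert membrane proteins at the endoplasmic reticulum (-0.48), Gars1, the glycyl-tRNA synthetase (-0.48), and Igbp1, a binding partner of phosphatase PP2A (-0.48). Their adjusted p-values lay between 0.0113 and 0.0477. Igbp1 passed under none of the 8 omissions and Esrrg and Gars1 under 1 each.

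**Figure D1:**
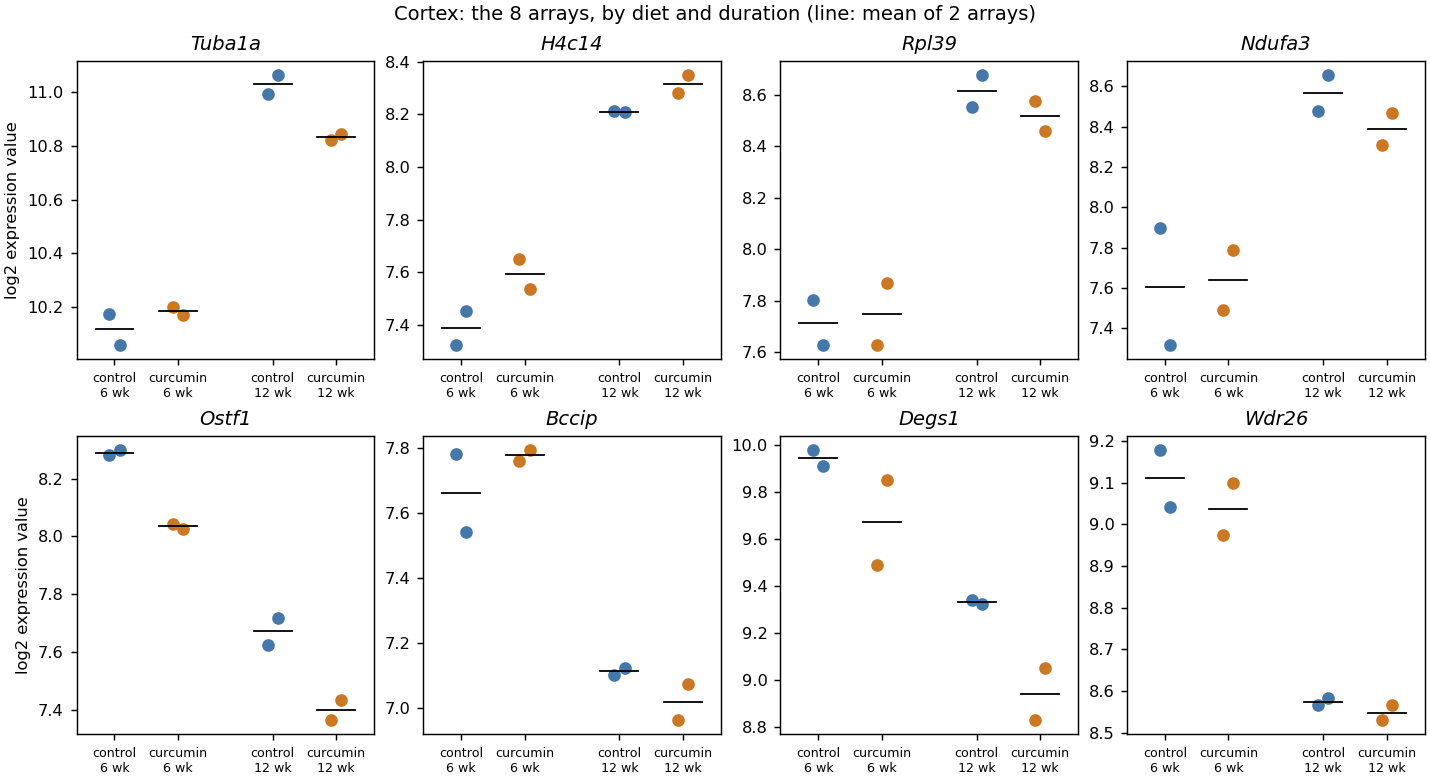
Log2 expression values of 8 genes on the 8 cortical arrays, by diet and duration, with the mean of the 2 arrays of a group as a line and a separate vertical scale for each gene. Every 12-week point lies above every 6-week point for Tuba1a, H4c14, Rpl39 and Ndufa3, and below for Ostf1, Bccip, Degs1 and Wdr26.

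Several of the largest shifts belonged to clusters with no gene symbol in the annotation used here, which make up 54.3% of the higher and 35.5% of the lower clusters, against 43.6% of all clusters. Cluster 10708691 stood at 6.97 to 7.34 at 6 weeks and 9.19 to 9.62 at 12 weeks, a rise of 2.16 ± 0.10 (limma adjusted p = 8.0e-04). Cluster 10930555 fell by 1.61 ± 0.22 (adjusted p = 0.0206), and cluster 10823595 by 0.83 ± 0.04 (adjusted p = 8.0e-04) from 9.44 to 9.52 to 8.62 to 8.66. Of 306 genes with a cluster that passed, 17 had more than 1, and none had clusters passing in opposite directions. Selenok, a selenoprotein of the endoplasmic reticulum, was one of these, with 9.91 to 9.99 at 6 weeks against 9.12 to 9.31 at 12 weeks on one cluster and a shift of -0.75 ± 0.05 (adjusted p = 0.00495).

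The additive fit penalises a shift that differs between diets, so the same direction of all 671 clusters in both diets largely follows from how they were picked. Taken separately, with a spread shared over the 4 groups, the control diet gave 522 clusters (1.91%), 388 higher (1.42%) and 134 lower (0.49%), and the curcumin diet gave 66 (0.241%), 49 higher (0.179%) and 17 lower (0.0622%). Of the 671 clusters, 26 passed in each diet, 205 in control only, 15 in curcumin only and 425 in neither alone. The named ones among the 26 were Tuba1a, H4c14, Micos13, Rps19, Selenok, Ostf1, Bccip and Rpl37l1, the last with 2 clusters. In all 27 clusters (0.0987%) passed in each diet, and the remaining one was Mob4, a subunit of the STRIPAK complex of phosphatase and kinases, with opposite directions. Mob4 stood at 9.14 and 9.11 on control and 9.35 and 9.34 on curcumin chow at 6 weeks, and at 9.47 and 9.49, and 8.78 and 8.72 at 12 weeks. Its shift was thus 0.35 on control and -0.59 on curcumin chow (limma adjusted p = 0.0435 and 0.0374). The difference between these shifts, -0.94 ± 0.08, did not pass the test of a difference between diets (limma adjusted p = 0.103). Over all clusters the shifts on both diets, which share no array, correlated at 0.274 (Pearson) and 0.217 (Spearman), a description across clusters that are not independent.

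A test of the difference itself, the interaction of duration and diet, called 1 cluster (0.00366%), and 3409 clusters had an unadjusted p under 0.05. That cluster, 10803049, had no gene symbol. It stood at 7.67 and 7.46 on the 12-week curcumin arrays and between 4.83 and 4.98 on the other 6 cortical arrays. The shift on curcumin chow exceeded that on control chow by 2.60 ± 0.12 (limma adjusted p = 0.00366). The size of the shift was larger on control chow in 281 of the 460 higher and 116 of the 211 lower clusters. Leaving out a single control array of either duration brought the control count to 0 in 3 of 4 cases, and to 552 without the first control array of 6 weeks, while 3288 to 6014 clusters had an unadjusted p under 0.05 under the 8 omissions. The curcumin count fell to between 1 and 7 under every one of them.

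**Figure D2:**
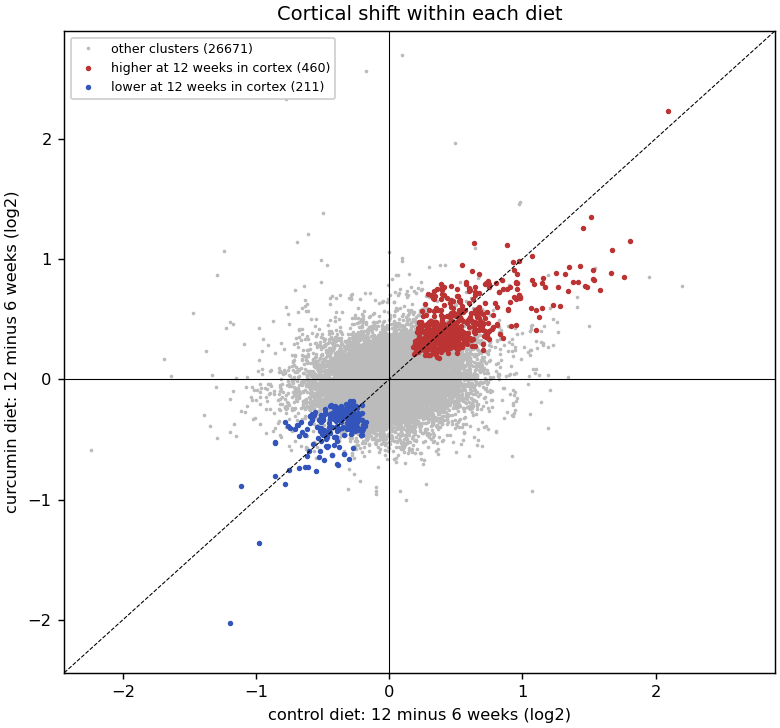
Shift from 6 to 12 weeks in cortex for 27342 transcript clusters, on control chow (horizontal, log2) against curcumin chow (vertical, log2), with the 460 higher and 211 lower clusters in colour and the dashed line marking equal shifts. The coloured clusters fall in the quadrants where both diets share a direction, as the fit that picked them favours, while all clusters together correlate at 0.274.

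The hippocampal arrays gave a comparison in other samples, though from the same rats, since both tissues of each animal went into the pools, and with the same unstated processing days. The tissues are therefore not independent. In a fit of all 16 arrays with diet nested in tissue, 2403 clusters (8.79%) passed in hippocampus, 1442 higher (5.27%) and 961 lower (3.51%), and 2072 (7.58%) passed in cortex. Of the 671 cortical clusters, 649 (96.7%) had the same direction in hippocampus, against 67% of all clusters, and 490 (73%) also passed there. None passed in the opposite direction. That fit shares 1 spread per cluster over both tissues. Clusters picked for a small spread in cortex were therefore favoured to pass in hippocampus too. The shift did not pass a test of difference between tissues for any cluster (0 of 27342 by limma, smallest adjusted p = 0.305), and 1909 clusters, 127 of the 671 among them, had an unadjusted p under 0.05. With the group of rats as a random block, an alternative chosen after seeing the data, the count was also 0 (smallest adjusted p = 0.316), with 1824 at an unadjusted p under 0.05. Over all clusters the cortical and hippocampal shifts correlated at 0.632, on control chow at 0.605 and on curcumin chow at 0.336.

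For single genes the cortical shift and the hippocampal one were close for Ccdc107 (0.92 and 0.90), Ndufa3 (0.86 and 0.86), Tuba1a (0.78 and 0.79), H4c14 (0.77 and 0.75), Bccip (-0.65 and -0.67) and Wdr26 (-0.51 and -0.51). They were farther apart for Ostf1 (-0.63 and -0.19), Kcnk4 (0.68 and 0.28) and Psd3 (0.70 and 0.36), whose hippocampal shifts did not pass (adjusted p = 0.160, 0.0917 and 0.157). These gaps did not pass the test of difference either.

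**Figure D3:**
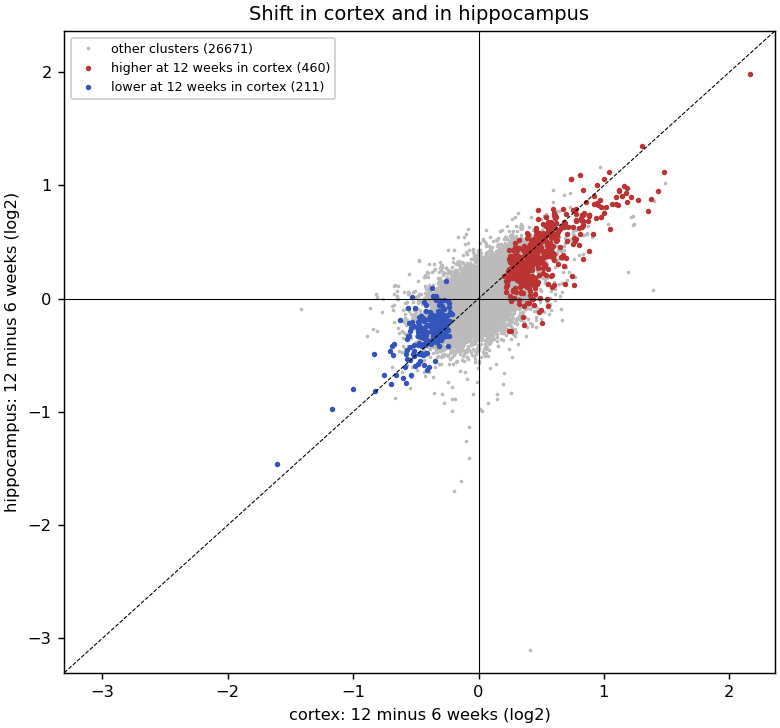
Shift from 6 to 12 weeks for 27342 transcript clusters in cortex (horizontal, log2) against hippocampus (vertical, log2), with the 460 clusters higher and the 211 lower in cortex in colour and equal shifts on the dashed line. Of the coloured clusters, 649 share their direction with hippocampus, and 0 differ between tissues by the test.

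Gene families, read from the start of the symbol after the values had been seen, showed which kinds of genes were called. The respiratory chain and ATP synthase had 12 of 74 genes higher and none lower, with a median shift of 0.18 against -0.02 over all genes. That is 16.2% of the family, beside 1.14% of all genes called higher and 0.866% called lower. Whether in a family or not, all genes called higher had a median level of 8.31 and all called lower 8.27, against 6.85 for all genes. The part of level in the share of this or any other family was not tested. The 12 were Ndufa3, Ndufa11, Ndufb2 and Ndufs7 of complex I, Uqcr11 and Uqcrq of complex III, Cox4i1, Cox5a and Cox8a of complex IV, and Atp5mc1, Atp5me and Atp5mg of ATP synthase. Cox8a rose by 0.62 ± 0.06, Uqcr11 by 0.62 ± 0.09, Ndufb2 by 0.56 ± 0.06 and Cox5a by 0.46 ± 0.05 (limma adjusted p = 0.00895 to 0.0206). Cox5a, for example, stood at 9.53 to 9.70 on the 6-week arrays and at 10.05 to 10.06 on the 12-week arrays, without overlap. In hippocampus the same family had a median shift of 0.17. Without the second control array of 6 weeks 5 of the 12 still passed, and the count ran from 0 to 8 over all omissions with the median between 0.14 and 0.23. The markers of projection neurons, cells rich in mitochondria, had a mean of 8.14 to 8.80 on the 6-week arrays and 8.56 to 8.79 on the 12-week arrays, and their part in these rises was not tested.

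The cytosolic ribosome translates messenger RNA. Of 71 genes, 5 were higher (Rpl3, Rpl39, Rps18, Rps19 and Rps21) and 4 lower (Rpl27a, Rpl35, Rpl4 and Rps3a), with a median of 0.01. Without the second control array of 6 weeks 4 were higher and 0 lower, and over all omissions 1 to 5 were higher and 0 to 7 lower. Counted by cluster the split was 37 higher and 5 lower of 257, since Rpl39, Rpl37l1, Rpl7a, Rps19, Rps21 and Rps18 each had several clusters that passed. The ribosomal proteins of mitochondria gave 1 higher gene (Mrps18c, 0.27) and 1 lower gene (Mrps30, -0.40) of 67, with a median of 0.05.

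Core histones, which wrap DNA, had 4 of 30 genes (13.3%) higher (H4c14, Hist2h3c2, Hist1h2ail1 and H2ac21) and none lower, although the median of the family was 0.03. Replication-dependent histone genes resemble each other closely, and RNA of one can bind probes of another. Further families of small or membrane subunits had calls in 1 direction. Lsm5, Lsm7 and Snrpd1 rose among 20 Sm and Lsm proteins of the splicing and decay machinery (15%, median 0.09), Atp6v0c and Atp6v0e2 among 20 subunits of the proton pump that acidifies vesicles and lysosomes (10%, median 0.08), and Tuba1a among 15 tubulins (6.67%, median 0.14). Over the omissions of an array the histones had 1 to 3 calls, the Sm and Lsm proteins 0 to 2 and the proton pump 0 to 1.

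Ubiquitin-specific proteases, which remove ubiquitin from proteins, had 5 of 39 genes (12.8%) lower, beside 0.866% of all genes (Usp13, Usp29, Usp31, Usp47 and Usp53, from -0.47 for Usp29 to -0.25 for Usp13) and none higher, at a family median of -0.03. None of these 5 passed without the second control array of 6 weeks. The initiation factors of translation and their regulators had 2 of 43 lower (Eif3c, -0.25, and Eif5b, -0.27) and none higher (median -0.09). Proteasome subunits were split, with Psmb5 higher and Psmb7 lower of 38. Zinc finger proteins had 1 of 152 higher (0.658%) and 3 lower (1.97%), and solute carriers 1 of 325 higher (0.308%) and 3 lower (0.923%). These few calls stand beside 1.14% of all genes higher and 0.866% lower. The 1104 olfactory receptors, which cortex hardly expresses, had none in either direction. The medians of these families were -0.01, -0.02 and -0.02.

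**Figure D4:**
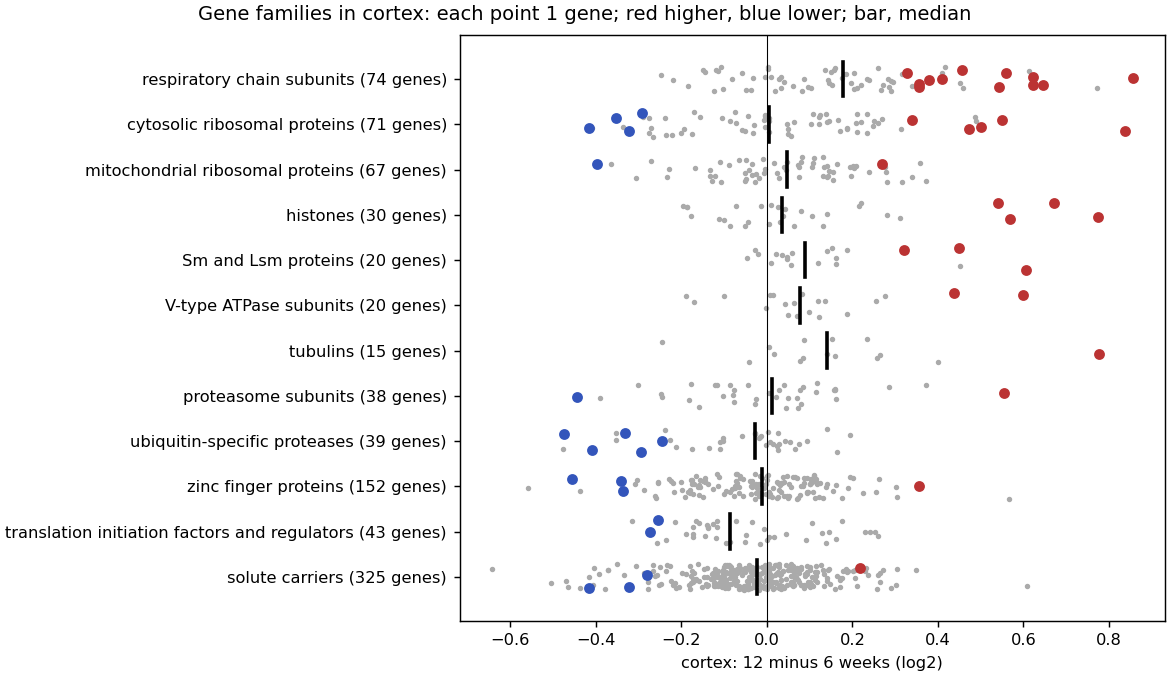
Shift from 6 to 12 weeks in cortex (log2, both diets) for the genes of 12 families, 1 point per gene by its brightest cluster, with genes called higher in red, genes called lower in blue and the family median as a bar. The respiratory chain has 12 called genes on the right and 0 on the left, the ubiquitin-specific proteases 5 on the left and 0 on the right, and the cytosolic ribosome 5 on the right and 4 on the left.

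The called genes differed in how much of the genome they span in the RefSeq annotation of GRCr8, a feature the comparison did not use. The median span was 7951 bases for the 163 higher genes, 32703 for the 124 lower genes and 18010 for all genes. Genes under 10 kb made up 52.1% of the higher and 23.4% of the lower genes, against 35% of all. When all genes were ordered by span and cut into 5 bins of equal size, the share called higher was 1.82% in the bin of the shortest genes, then 1.57%, 1.09% and 0.735%, and 0.49% in the bin of the longest. The share called lower was 0.315%, 0.909%, 0.735%, 1.15% and 1.22% in the same order. The mean level also rose with span, from 5.97 in the bin of the shortest to 7.53 in that of the longest genes, and its part in the result was not tested.

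**Figure D5:**
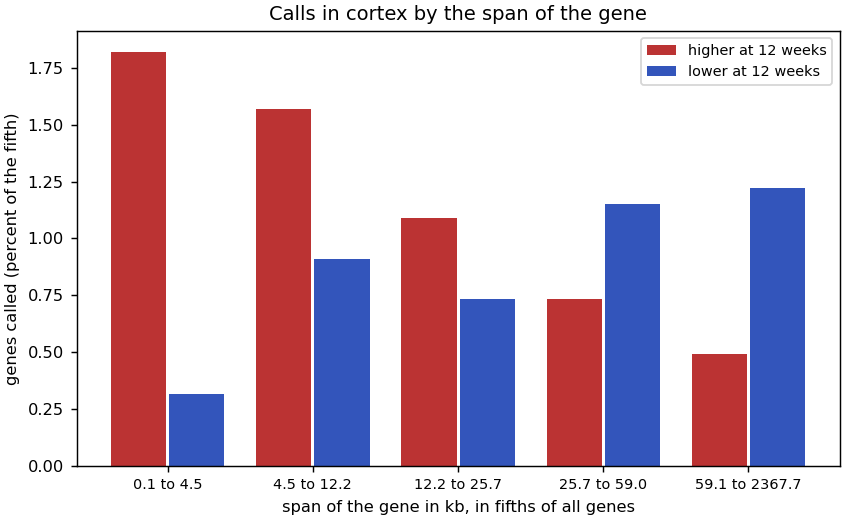
Share of genes called higher (red) and lower (blue) at 12 weeks in cortex, in percent of each of 5 equal bins of all genes ordered by their span (kb, GRCr8). The red bars fall from 1.82% to 0.49% and the blue bars stand at 0.315% and 1.22% at both ends.

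Promoters were compared as windows of 300 bases, from 250 before to 50 after the start of the gene, in the RefSeq table for GRCr8. A window was found for 131 of the 163 higher genes, 98 of the 124 lower genes and 11823 of all genes with a cluster. The median share of G and C was 61.7% for the higher, 58.7% for the lower and 58% for all of these genes. On either strand, the GC box GGGCGG was held by 67.2% of higher, 52% of lower and 50.2% of all windows. The site CCGGAAG of ETS factors was held by 22.9%, 26.5% and 13%, the cAMP response element TGACGTCA by 7.63%, 1.02% and 2.44%, the CCAAT box CCAAT by 33.6%, 41.8% and 38.3%, the E-box CACGTG by 9.92%, 9.18% and 7.87%, and the TATA box TATAAA by 7.63%, 6.12% and 11.8%. Among all 27455 RefSeq promoters the shares were 34.9%, 9.22%, 1.91%, 37.7%, 6.65% and 14.3% in the same order. The shares of the cAMP response element rest on 10 of 131 higher and 1 of 98 lower windows. Called genes were also brighter, with a median level of 8.31 for the higher and 8.27 for the lower genes, against 6.85 for all genes. The part of this level in the motif shares was not tested. The windows of 3 higher genes of different families and of the steadiest lower gene are printed 5′ to 3′ to show what these sequences look like, with every match to any of the 6 motifs on either strand in capitals. A match is only a run of letters and not a site known to be bound.
Cox8a (chr1:213833574-213833873, minus strand): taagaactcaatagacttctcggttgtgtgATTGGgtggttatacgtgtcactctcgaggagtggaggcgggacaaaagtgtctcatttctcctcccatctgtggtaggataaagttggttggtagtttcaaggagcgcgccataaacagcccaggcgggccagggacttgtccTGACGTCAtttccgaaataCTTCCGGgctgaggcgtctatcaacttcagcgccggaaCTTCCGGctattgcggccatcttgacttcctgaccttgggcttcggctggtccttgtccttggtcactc
Rpl39 (chrX:121195847-121196146, minus strand): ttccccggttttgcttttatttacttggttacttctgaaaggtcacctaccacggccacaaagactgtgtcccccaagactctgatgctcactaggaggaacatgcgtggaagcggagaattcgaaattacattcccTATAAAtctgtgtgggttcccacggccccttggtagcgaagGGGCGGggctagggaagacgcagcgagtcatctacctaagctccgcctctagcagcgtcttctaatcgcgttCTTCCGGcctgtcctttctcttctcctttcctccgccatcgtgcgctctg
Hist2h3c2 (chr2:186525912-186526211, plus strand): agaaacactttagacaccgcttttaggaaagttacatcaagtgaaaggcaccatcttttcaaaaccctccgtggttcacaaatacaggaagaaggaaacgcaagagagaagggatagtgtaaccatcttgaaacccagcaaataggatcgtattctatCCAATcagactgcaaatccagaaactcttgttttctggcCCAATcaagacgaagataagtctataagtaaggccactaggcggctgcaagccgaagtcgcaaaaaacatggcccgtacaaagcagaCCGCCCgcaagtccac
Ostf1 (chr1:225475802-225476101, minus strand): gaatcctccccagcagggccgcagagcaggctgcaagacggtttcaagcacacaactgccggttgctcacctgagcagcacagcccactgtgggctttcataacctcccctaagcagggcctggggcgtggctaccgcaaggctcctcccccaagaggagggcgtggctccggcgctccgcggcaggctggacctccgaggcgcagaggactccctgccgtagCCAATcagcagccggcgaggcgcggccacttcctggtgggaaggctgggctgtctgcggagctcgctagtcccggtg
The Cox8a window holds the cAMP response element, a pair of ETS sites and a CCAAT box, that of Rpl39 a TATA box, a GC box and an ETS site, that of Hist2h3c2 a pair of CCAAT boxes and a GC box after the start of the gene, and that of Ostf1 a single CCAAT box.

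Gene lists for pathways of aged cortex were counted in the same way, by the brightest cluster of each gene, beside the background of 1.14% higher and 0.866% lower and a median of -0.02. The vesicle release list had 4 of 24 genes higher, none lower and a median of 0.13. Its shifts ran from -0.84, in a gene that did not pass, to 0.43. By limma 7 of the 24 had an unadjusted p under 0.05. In 2 genes all 4 arrays of 12 weeks lay above all 4 of 6 weeks. The median was 0.22 on control and 0.01 on curcumin chow and -0.04 in hippocampus. Syn1, which tethers vesicles, stood at 8.97 and 8.84 on control and 9.36 and 9.45 on curcumin chow at 6 weeks, and at 9.45 and 9.38, and 9.82 and 9.70 at 12 weeks. Its durations overlapped, since curcumin at 6 weeks and control at 12 weeks gave like values, and the shift within diets was 0.51 and 0.36. Over both diets Syn1 rose by 0.43 ± 0.06, Rab3a, a vesicle GTPase, by 0.37 ± 0.05, the SNARE Vamp2 by 0.41 ± 0.07 and the vesicle protein Syp by 0.36 ± 0.07 (limma adjusted p = 0.0198 to 0.0486). Vamp2 and Syp passed under none of the 8 omissions of an array. In hippocampus the same genes gave -0.01, 0.18, 0.04 and 0.23. Slc17a7, the vesicular glutamate transporter of projection neurons, was likewise lowest on the control arrays of 6 weeks, at 9.71 and 9.54 against 10.39 to 10.84 on the other cortical arrays, and its part in the vesicle result was not tested.

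Antioxidant genes moved in both directions. Prdx6, a peroxiredoxin, stood at 8.05 to 8.26 at 6 weeks and 8.53 to 8.85 at 12 weeks and rose by 0.59 ± 0.08 (limma adjusted p = 0.0177), and catalase (Cat) rose by 0.39 ± 0.08 (adjusted p = 0.0468). Prdx1, another peroxiredoxin, fell by 0.46 ± 0.07 (adjusted p = 0.0267) from 9.17 to 9.63 to 8.75 to 8.97. The list of 21 genes had a median of 0.05, and Cat passed under none of the 8 omissions.

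The heat shock, unfolded protein and hypoxia lists held 1 fall each. Hspd1, the mitochondrial chaperonin, fell by 0.25 ± 0.05 (limma adjusted p = 0.0498) and was the only call among 15 heat shock genes (median -0.06), where Hspe1 gave 0.23 and Hspa8 -0.16 without passing. Hsp90b1, the chaperone of the endoplasmic reticulum, fell by 0.28 ± 0.04 (adjusted p = 0.0249), alone among 15 genes of the unfolded protein response (median 0.03), where Ddit3 gave -0.21 and Dnajb9 0.11. Hif1a, the oxygen-regulated transcription factor, fell by 0.30 ± 0.05 (adjusted p = 0.0373), alone among 12 hypoxia genes (median -0.09), where Bnip3 gave 0.17 and Adm -0.25. Hspd1 passed under none of the 8 omissions, and Hsp90b1 and Hif1a under 1 each.

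The proteasome list held Psmb5, a catalytic subunit, at 8.43 to 8.58 and then 8.90 to 9.24, a rise of 0.55 ± 0.08 (limma adjusted p = 0.0198), and Psmb7, another catalytic subunit, at 9.60 to 9.72 and then 9.19 to 9.26, a fall of 0.44 ± 0.05 (adjusted p = 0.00959). The 24 genes had a median of -0.02, Psma6 gave -0.30 without passing (adjusted p = 0.0548), and the directions of Psmb5 and Psmb7 recurred in hippocampus, at 0.68 and -0.28. The shorter lists of respiratory chain (31 genes, 3 higher, median 0.15) and cytosolic ribosome (28 genes, 3 higher, 1 lower, median 0.00) overlap with the families above.

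No gene passed in the other 13 pathway lists, and the members with the largest moderated t are given as values. The clock list (16 genes, median 0.13) was led by Nr1d1 (0.28), Csnk1d (0.13) and Per2 (0.28), and the immediate early list (17 genes, 0.13) by Jun (0.33, adjusted p = 0.0628), Egr4 (0.23) and Npas4 (0.48). The glucocorticoid list (16 genes, -0.08) was led by Pdk4 (-0.51), Cdkn1a (-0.21) and Sgk1 (-0.30). Genes of these 3 lists follow the hour, the activity and the stress before death, none of which the labels give.

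Sterol synthesis (12 genes, median 0.14) was led by Mvd (0.22), Srebf2 (0.14) and Sqle (-0.23), with a median of 0.39 on control and -0.17 on curcumin chow. Postsynaptic genes (24, median 0.02) were led by Dlgap2 (0.16), Nlgn2 (0.18) and Nlgn3 (0.14), GABA-A receptor genes (10, 0.11) by Gphn (-0.36, adjusted p = 0.0821), Gabrb1 (0.34) and Gabra5 (0.33), and potassium channels (19, -0.03) by Kcnd2 (-0.21), Kcnh1 (-0.31) and Kcna4 (-0.20). The postsynaptic, GABA-A and potassium channel lists held no call, although Kcnk4, a potassium channel on none of them, rose as given above, and whether this differs from the 4 calls among the release genes was not tested.

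The list of genes known to change in the ageing brain (12 genes, median -0.09) held no call, led by Cdkn1a (-0.21), Gpnmb (-0.26) and Cdkn2a (-0.09). Interferon genes (17, -0.06) were led by Ifit2 (-0.17), Bst2 (-0.18) and Rsad2 (-0.18), MHC class I (9, -0.08) by Tap1 (-0.15), RT1-S3 (-0.22) and RT1-CE10 (-0.11), and cell cycle genes (14, -0.03) by Aurka (-0.14), Top2a (-0.13) and Cdk1 (0.06). MHC class II (8, 0.11), which presents antigen to T cells, was led by RT1-Db1 (0.20), RT1-Da (0.78) and Cd74 (0.70). The last 2 had opposite shifts in the diets, -0.77 and -1.17 on control against 2.33 and 2.56 on curcumin chow, and did not pass here (adjusted p = 0.597 and 0.698). Of the 7 nuclear-retained RNAs listed, taken as a sign of RNA quality, only 2 were measured. Snhg11 gave 0.36 (limma adjusted p = 0.0526) and Meg3 0.06 (adjusted p = 0.898). Their mean stood at 10.73 and 10.74 on the curcumin arrays of 12 weeks and at 10.16 to 10.32 on the other 6, with a median shift of 0.49 on curcumin and -0.07 on control chow, and its part in the shifts on curcumin chow was not tested.

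No marker of any of the 18 cell type lists passed either. Neurons were represented by projection neuron markers (11 genes, median 0.22), led by Slc17a7 (0.61, adjusted p = 0.0629), Nrgn (0.48) and Cux1 (-0.29), and by interneuron markers (15, -0.04), led by Sst (0.48, adjusted p = 0.0666), Cck (0.69) and Dlx5 (-0.68). The projection neuron median was 0.58 on control and -0.13 on curcumin chow. Among glia, astrocytes (12, -0.11) were led by Mlc1 (-0.26), S100b (-0.16) and Slc4a4 (-0.51), oligodendrocytes (14, -0.28) by Ermn (-0.57), Sox10 (-0.25) and Mog (-0.40), their precursors (9, -0.08) by Pdgfra (-0.34), Vcan (-0.37) and Enpp6 (-0.32), and microglia (15, -0.03) by Tmem119 (0.16), Tyrobp (0.22) and Aif1 (0.32). The myelin markers varied more between arrays than between durations, with means of 8.01 to 9.40 at 6 weeks and 8.26 to 8.89 at 12 weeks.

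Vessels, linings and blood gave no call. The endothelial list (12 genes, median -0.11) was led by Abcb1a (-0.33), Mfsd2a (-0.27) and Esam (-0.22), the pericyte list (11, -0.08) by Abcc9 (-0.28), Rgs5 (0.29) and Kcnj8 (-0.36), and the meningeal list (14, 0.07) by Igf2 (0.30), Lum (0.12) and Fmod (-0.21). Choroid plexus markers (13, -0.02), led by Kl (-0.14), Cldn2 (-0.08) and Ttr (0.41), had means of 5.61 to 5.93 in cortex, while their hippocampal median was -0.73. Ependymal genes (9, -0.07) were led by Tekt1 (-0.24), Dnah11 (-0.35) and Tekt2 (0.08), red cell genes (5, -0.10) by Slc4a1 (-0.16), Alas2 (-0.25) and Ahsp (0.03), and T cell genes (12, 0.04) by Lck (0.14), Thy1 (0.18) and Cd8b (-0.10).

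Markers of regions next to cortex, which a dissection can include, held no call, and the striatal, olfactory bulb and hypothalamic lists had medians below 0. Striatal markers (13, -0.26) were led by Isl1 (-0.22), Penk (-0.55) and Adcy5 (-0.27), with means of 7.06 to 8.75 at 6 weeks and 7.04 to 8.22 at 12 weeks. Olfactory bulb markers (11, -0.32) were led by Nmb (-0.20), Meis2 (-0.38) and Pbx3 (-0.81), and hypothalamic markers (15, -0.14) by Prkcd (-0.27), Otp (0.12) and Hcrt (-0.26). Both lists were highest on the second control array of 6 weeks, whose omission is given above. Dentate markers (9, 0.03) were led by Prox1 (-0.54), Ccn3 (0.61) and Spata3 (0.18), and progenitor markers (9, -0.10) by Sox2 (-0.39, adjusted p = 0.0564), Nes (0.18) and Igfbpl1 (-0.20).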

How the data were processed

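The deposited values are log2 expression values that the authors made with Affymetrix Expression Console by RMA, which corrects background, normalizes quantiles across arrays and sums probes to a transcript cluster, as named in the submitters' processing notes without versions. RMA compresses small differences between arrays and assumes like distributions on all of them. The 8 cortical columns of the table of 27342 clusters were used for the comparison and the 8 hippocampal ones beside it, with no filter and no pseudocount. The intensities of the scanner were not used here, so signal over background is unknown, and the number of arrays limits the precision.

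Clusters were named through GEO's platform annotation (15097 with 1 gene symbol, 323 with several and 11922 with none). Of those with 1 symbol, 15067 were found in the RefSeq table of GRCr8, from which coordinates, spans and promoter sequences were taken. Whether the chip was an exon or a gene array is given differently by the sources used here.

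The shift was fitted with limma 3.58.1 (R 4.3.3) on duration with diet as a block over the 8 arrays (5 residual and 2.62 prior degrees of freedom), with Benjamini-Hochberg adjustment over all clusters and a threshold of 0.05. Shifts within diets and their difference came from a fit of group means, and the hippocampal shift and the tissue difference from a fit of all 16 arrays with diet nested in tissue. Each gene was represented by its brightest cluster over the cortical arrays. Named genes are the 12 highest and 12 lowest shifts among clusters with 1 symbol that passed, had the same sign in both diets and had all 4 arrays of one duration beyond the other, and the 3 members of each of the 39 gene lists with the largest moderated t. Selenok, Mob4, clusters without a symbol and members of families were named after their values were seen. The members and lists were chosen with earlier results of these data known. The scripts were tested on simulated data. Settings tried were other filters, scalings, variance models, blocks and thresholds, and the omission of each array. Figures were drawn with matplotlib 3.10.9.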

Additional observations from a re-analysis of the deposited data

Results flagged for a closer look

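The shift of cluster 10803049, which has no gene symbol, differed between the diets by 2.60 ± 0.12 on the log2 scale (curcumin minus control, limma interaction, adjusted p = 0.00366). Its values were 7.67 and 7.46 on the 12-week curcumin arrays of cortex and 4.83 to 4.98 on the other 6 cortical arrays. With 2 arrays in a group, no test for a single deviating array was made.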

How the results depend on the processing

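The 671 clusters (460 higher) became 345 (248) with a replicate block, 1266 (791) with the group as a random block, 2534 (1471) with group means over all arrays, 1765 (1057) with array weights, 0 (0) after averaging the arrays of a group, where 1 residual degree of freedom remained and 2658 clusters had an unadjusted p under 0.05, 48 (39) at an adjusted p under 0.01, 130 (116) with the fold rule added, 240 (193) by the fold rule alone and 287 (163) by the brightest cluster of each gene, an alternative chosen after seeing the data. The consensus correlation within group was -0.132, and a negative value in the random block narrows the SE of a shift between groups. Leaving out 1 array gave 25 to 666 (22 to 474 higher), 25 to 628 calls with all arrays apart (636 in all), 1 to 18 list genes that passed (19) and 4 to 19 of the 24 genes named by size. The 522 control calls became 987 and 1135 without the clusters under the 25th percentile and the median of brightness, 842 with quantile normalization, 1170 with trend and robust variances, 1690 with array weights, 319 with the replicate block and 0 to 552 without 1 array. The 66 curcumin calls became 101 without the dimmest clusters, 204 with trend and robust variances, 5 with array weights, 2 with the replicate block and 1 to 7 without 1 array. The single diet difference became 0 above the median brightness, 11 with trend and robust variances and 0 to 17 without 1 array, and the tissue difference stayed at 0, also with the group of rats (2321 cortical calls) or the group and replicate number (2082) as a random block, chosen after seeing the data. With all clusters of a gene averaged, 11 list genes passed in place of 19. Of the 24 named genes, 0 passed with averaged arrays, 3 were lost with median centring and 8 with the replicate block (highest adjusted p = 0.0795), and none reversed. Meg3 (0.06) turned to -0.078 with array weights and ran from -0.042 to 0.17 without 1 array (-0.042, -0.01, -0.03 and -0.03 without each curcumin array), and Adcy5 (-0.27) from -0.55 to 0.030. Causes were not tested. Deviations of cortical arrays with the same replicate number in different groups correlated at -0.26 to 0.17. Between the tissues of a group of rats, the gaps between replicates correlated at 0.162 (control) and 0.148 (curcumin) at 12 weeks. At 6 weeks they correlated at 0.124 (control) and -0.154 (curcumin). These values do not settle whether the numbers pair the arrays.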
